A study of Mus musculus with 4 samples.

Results

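In the midbrain of mice, 834 cells carry the deposited label CPC, which the labels do not spell out, out of 11630 midbrain cells and 21644 cells in the whole series. They were taken by that label alone: 269 from the transgenic library and 565 from the wildtype library. The series holds 4 single-cell RNA libraries (10x 3' v3 chemistry), 1 for each genotype in midbrain and in frontal cortex, from brains dissociated for glial and vascular cells. The transgenic mice are of the strain labelled Hua-Syn(A53T), and the controls are wildtype littermates labelled C57BL/6. All were 6 to 9 months old, and no other allele or agent is named for either group. The promoter of the transgene is not given in the sources used here. According to the design text a group had 3 mice, while the mouse number label of both midbrain libraries is 0. No cell is tied to a mouse, so each genotype is 1 pooled sample. A difference between genotypes therefore compares 2 libraries, without a replicate check or a p-value, and the intervals given (95%, exact) cover counting error only.

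Background helps to read these cells. The choroid plexus is a sheet of secretory epithelium in the brain ventricles that makes cerebrospinal fluid. Its cells pump sodium, chloride and bicarbonate, take vitamins and hormones from blood, and secrete carrier proteins, above all transthyretin (Ttr), which carries thyroid hormone and retinol-binding protein. The ependyma, which lines the ventricles beside it, is instead a ciliated epithelium that moves the fluid.

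The leading genes of the CPC-labelled cells were those of choroid plexus epithelium. Ttr alone made up 28.7% of all their UMIs (unique molecules counted) in the transgenic library and 27.8% in the wildtype library. Of 25 plexus epithelial markers, 22 were highest in CPC among the 15 midbrain labels in both libraries and 0 in the cells labelled EPC. Of 22 ependymal markers, 21 were highest in EPC and 0 in CPC. The 3 plexus markers outside that count were Slc13a4, highest in the label OPC, Col8a2, highest in the label OLG, and Msx1, highest in EPC in the transgenic library. Because the labels were drawn from these same counts, these levels describe the cells and are not a test.

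After Ttr, the secreted lysophospholipase Enpp2 (autotaxin) stood highest among the 30 leading genes, with 15025 CPM (counts scaled to 1000000 summed UMIs) in transgenic and 12216 CPM in wildtype CPC. UMIs of 3' libraries were counted once per molecule, so levels were compared between genes without a length correction. The long noncoding RNA 2900040C04Rik (GRCm38 chromosome 14, 76251457 to 76252327, plus strand) had 1543 and 1540 CPM. Folate receptor Folr1 (chromosome 7, 101858331 to 101870788, minus strand) had 1105 and 1056 CPM, and Kl (klotho, chromosome 5, 150952607 to 150993817, plus strand) had 946 and 883 CPM. The BMP and WNT antagonist Sostdc1 had 878 and 959 CPM. These 5 genes lay within a factor of 1.5 between the libraries.

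Receptors and channels followed at lower levels. The potassium channel Kcnj13 had 751 CPM in transgenic and 588 CPM in wildtype CPC, the potassium channel subunit Kcne2 had 401 and 322 CPM, and the prolactin receptor Prlr had 634 and 529 CPM. The serotonin receptor Htr2c had 266 and 242 CPM. Cox8b, a subunit isoform of cytochrome c oxidase, had 605 and 493 CPM. The remaining leading genes were Frmpd1os, Prr32, Prcd, Defb11, Slc16a8, Krt18, Smim22, Atp2b3, Steap1, Car12, F5, Vat1l, Slc4a5, Ociad2, Tmem72, Wfdc2, Hemk1, Clic6 and Pcp4.

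Genes of brain position were also read, since plexus forms in several ventricles. The CPC-labelled cells carried Ins2 UMIs in 17.8% of transgenic and 31.2% of wildtype cells (26.7 and 45.5 CPM), against 0.16 and 0.57 CPM in all non-CPC cells. Emx1, a forebrain homeobox gene, was found in 9.67% and 10.1% of CPC (38 and 78 UMIs), and its level in EPC was 10.1 and 10.2 CPM. Six3, another, was found in 20.1% and 28.9% of CPC (31.1 and 40.3 CPM), below its level in EPC (85.8 and 70.3 CPM). Rax had 4.78 and 4.51 CPM, close to its level in the other cells (4.34 and 3.83 CPM). En1, En2, Hoxb3, Hoxb4, Pax5, Pax8, Gbx2 and Shh, of the midbrain and hindbrain list, had 0 UMIs in CPC of either library, and 12 of the 19 genes of that list were present in the table. At this depth 0 UMIs allow up to 3 UMIs in 2508147 (transgenic) and 5982377 (wildtype). Irx3 and Irx5 were at 3.19 and 0.80 CPM in transgenic CPC, below the 53.8 and 95.9 CPM of transgenic EPC.

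Most CPC-labelled cells had next to no Malat1, an abundant nuclear long noncoding RNA (chromosome 19, 5795690 to 5802672, minus strand). Their median was 2 Malat1 UMIs per cell in transgenic and 3 in wildtype, or 0.027% and 0.036% of the cell's UMIs. Astrocytes (label AC) had a median of 15.2% and 15.7%, and EPC, the nearest epithelium, 4.01% and 3.48%. Malat1 was under 0.1% of UMIs in 241 of 269 transgenic and 480 of 565 wildtype CPC (89.6% and 85.0%), but in 2.22% and 1.75% of EPC and in at most 27.1% of any other midbrain label. The median CPC had 8500 and 10104 UMIs and 1996 and 2301 genes. Whether cells with so little of a nuclear RNA were intact was not tested, and the CPC levels and ratios given here come mostly from such cells.

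**Figure D1:**
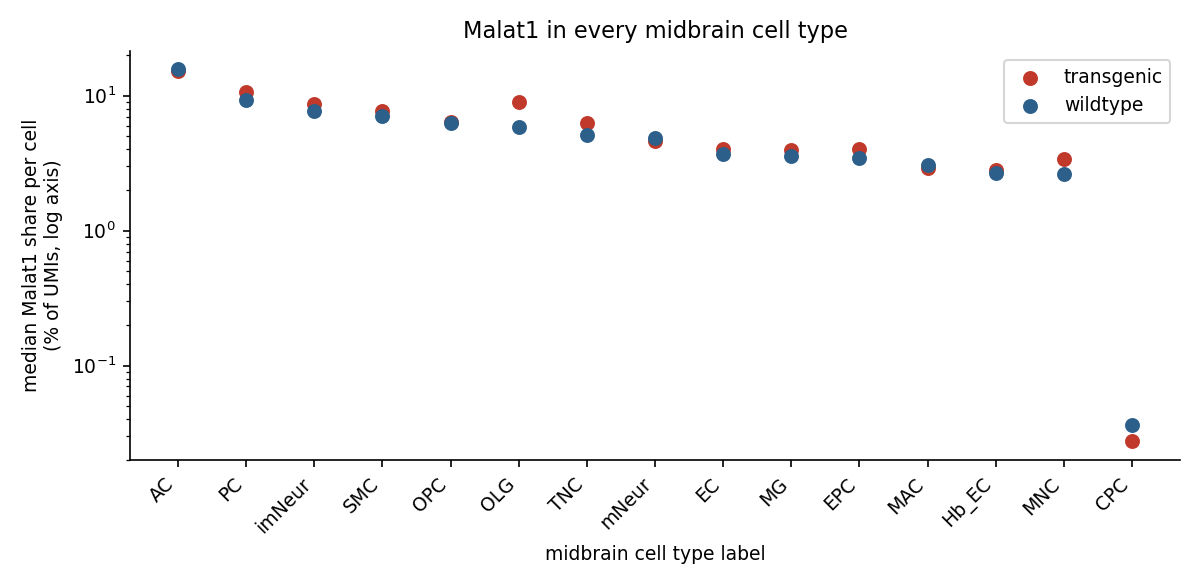
Median share of each cell's UMIs that come from Malat1 (vertical axis, percent, log scale) for the 15 midbrain labels (horizontal axis); each point is 1 library. CPC sit at 0.027% and 0.036%, while every other label lies above 2% in both libraries.

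A small set of CPC-labelled cells did have Malat1: 3 transgenic and 26 wildtype cells had at least 1% of their UMIs from it. These cells had more UMIs, with medians of 14072 and 14714 UMIs against 8500 and 9691 in the others. In the wildtype library their endothelial markers summed to 2975 CPM against 258 CPM in the others, with 285 of the 1139 UMIs in 1 cell, and their astrocyte markers to 3001 CPM against 413 CPM. Of the 3 transgenic cells, 1 held 224 of their 226 endothelial and 153 of their 162 astrocyte marker UMIs. Ttr was still at a median of 22.8% and 21.1%. Whether they hold RNA of a second cell was not tested.

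The authors' 3 clusters within CPC differed in how much of the RNA was Ttr and mitochondrial. Cluster 8 held 139 transgenic and 261 wildtype cells, cluster 12 held 52 and 96, and cluster 13 held 78 and 208. Clusters 8 and 12 resembled each other in makeup, with Ttr at 35.4% to 36.4% of UMIs, and differed in depth: medians of 6777 and 7562 UMIs in cluster 8 against 15872 and 15555 in cluster 12. Cluster 13 had Ttr at 9.67% in transgenic and 13.8% in wildtype. Its median mitochondrially encoded share was 1.52% and 1.94%, against 7.84% to 9.07% in clusters 8 and 12. Cluster 13 made up 29.0% (23.6 to 34.8) of transgenic and 36.8% (32.8 to 40.9) of wildtype CPC, and these intervals overlap.

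**Figure D2:**
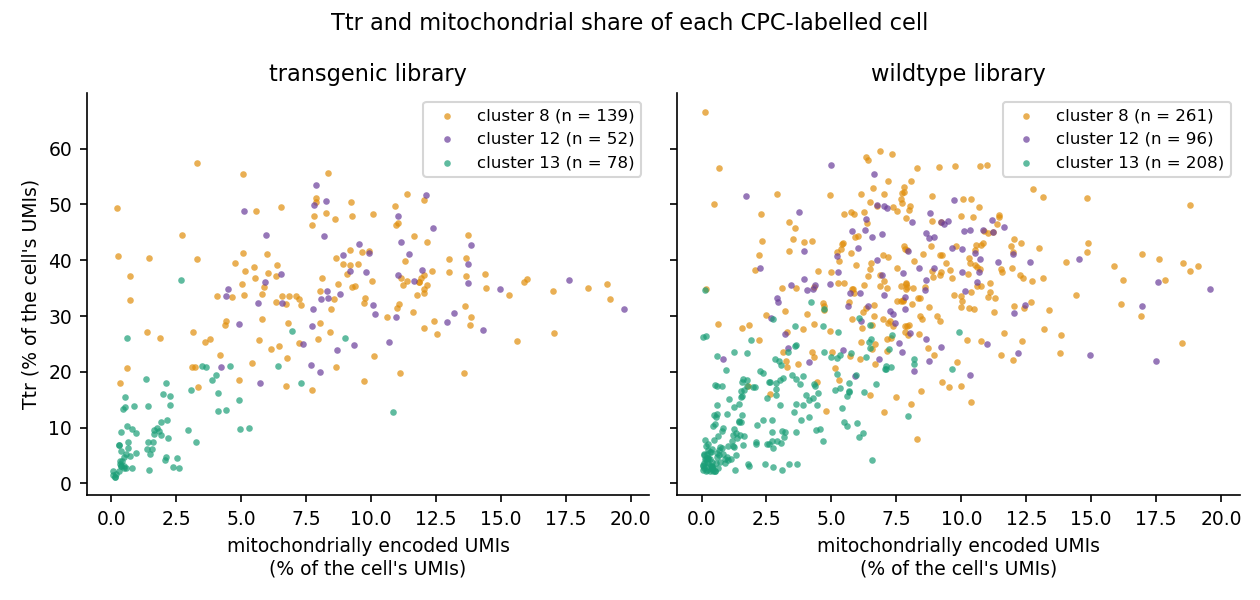
Each point is 1 CPC-labelled cell; the horizontal axis gives the mitochondrially encoded share and the vertical axis the Ttr share of its UMIs, in percent, for each library, coloured by the authors' cluster. Cluster 13 gathers at the low end of both axes and overlaps the other clusters in part.

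The cluster 13 comparison was added after the data were seen, and the clusters were drawn from the same genes, so it is a description. CPM are shares of a total of which Ttr is a smaller part in cluster 13, and the median of the 2769 genes compared was 1.14 there on the log2 scale. By at least 2 times and in both libraries, 1388 genes (50.1%) were higher and 364 (13.1%) were lower. Other scalings shift every ratio down: on the same genes edgeR's TMM factors gave 0 higher and 504 lower, and a total without Ttr, mitochondrially encoded and ribosomal protein genes gave 11 and 478.

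Several function lists had most of their compared members lower in cluster 13. All 13 compared genes of the endoplasmic reticulum stress list were lower in cluster 13, among them the chaperone Hspa5 (log2 ratio -2.37 transgenic, -1.45 wildtype), and all 13 mitochondrially encoded genes were lower, such as mt-Co1 (-2.21 and -1.60). Of 22 secreted proteins 18 were lower, of 16 carriers 14, and of 23 ion transport genes 15. Enpp2 differed by -2.17 and -1.73, the sodium-potassium-chloride cotransporter Slc12a2 by -2.49 and -1.89, and the lysosomal protease Ctsd by -2.12 and -1.50. Scaled without Ttr, mitochondrial and ribosomal genes, the counts became 13, 13, 20, 15 and 18 for these lists in the same order.

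The nuclear-encoded respiratory chain had 22 of 29 genes higher in cluster 13 with a median of 1.27, close to the 1.14 of all genes, and 0 of 29 higher or lower once Ttr, mitochondrial and ribosomal genes were taken out of the total. Carbonic anhydrase 2 (Car2), a cytosolic enzyme, was 1.48 and 1.34 higher, while its membrane-bound relatives Car12 (-1.68 and -1.53) and Car14 (-1.52 and -1.34) were lower. The secreted proteins Igfbp2 (-1.93 and -1.58) and Sostdc1 (-1.85 and -1.79) were lower too. Among all genes, the largest on the high side by the naming rule were Bloc1s1 (2.14 and 1.73), Zadh2 and Glod4, and on the low side Sema3b (-2.77 and -2.34), Col8a1 and Slc5a3. Malat1 gave no such split, at a median of 2 and 3 UMIs per cell in cluster 13 and 2 to 4 in clusters 8 and 12.

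Against EPC, the CPC-labelled cells had lower levels of motile cilium genes and higher levels of most ion transport genes and carriers. The EPC numbered 45 transgenic and 114 wildtype cells, and the median of the 3823 genes compared was -0.91 in CPC over EPC on the log2 scale. By the same rule, 386 genes (10.1%) were higher in CPC and 1728 (45.2%) were lower. With TMM factors the counts were 1079 and 977, and with the total without Ttr, mitochondrial and ribosomal genes 683 and 1302 on the same genes. The 30 named genes of this comparison kept their direction under all 8 alternatives run for it. They were picked for the largest ratios each way, so this outcome was all but fixed in advance and is no check.

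Of 42 compared cilium axoneme genes 41 were lower in CPC and 0 higher, the exception being Rsph9 at -0.83 in transgenic and -0.87 in wildtype. The ependymal gene Tmem212 had 1.20 and 1.17 CPM in CPC against 3208 and 2937 CPM in EPC. Dnah12, an axonemal dynein heavy chain, had 0 and 0.33 CPM against 542 and 595 CPM. Foxj1, the transcription factor that turns on motile cilium genes, was not absent: it stood at 40.7 and 56.3 CPM against 538 and 686 CPM. The adhesion and glial genes Gja1 (24.3 and 32.9 CPM against 469 and 545 CPM) and Sox9 (168 and 145 CPM against 1029 and 929 CPM) were also lower.

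Ion and water transport stood on the other side, with 16 of 23 genes higher in CPC, 3 lower and a median of 3.44. The bicarbonate transporter Slc4a5 had 162 CPM in transgenic and 124 CPM in wildtype CPC against 3.36 and 1.56 CPM in EPC. The water channels split: Aqp1 had 83.3 and 91.9 CPM against 1.68 and 3.13 CPM, while Aqp4 had 12.8 and 14.4 CPM against 434 and 486 CPM. The sodium pump subunit Atp1b1 was higher (904 and 723 CPM against 124 and 116 CPM).

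Carriers had 11 of 15 genes higher and 1 lower, the glucose transporter Slc2a1 (73.0 and 77.6 CPM against 471 and 618 CPM). The thyroid hormone carrier Slco1c1 was higher (451 and 357 CPM against 26.9 and 40.6 CPM). Secreted proteins had 13 of 23 genes higher and 3 lower. Transferrin (Trf) was higher at 651 and 500 CPM against 32.0 and 32.0 CPM, while ceruloplasmin (Cp), which oxidises iron, was at 99.2 and 102 CPM in EPC and had log2 ratios of -5.96 and -6.67 in CPC. Angiotensin-converting enzyme (Ace) had 433 and 305 CPM against 8.41 and 7.03 CPM.

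Metabolism and stress lists differed in how far they stood from the shares of all genes. Nuclear-encoded respiratory chain genes had 19 of 29 higher and 0 lower, such as the ATP synthase subunit Atp5g1 (1982 and 2408 CPM against 262 and 254 CPM), while mitochondrially encoded genes had 1 of 13 higher, near the share of all genes. Metallothioneins were lower: Mt1 had 356 and 315 CPM against 6000 and 5625 CPM. Of 16 immediate early genes 15 were lower, with Fos at 49.4 and 68.4 CPM against 829 and 949 CPM. Of 16 heat shock genes 7 were lower and 2 higher, close to the shares of all genes (45.2% and 10.1%), the higher being Cryab (696 and 741 CPM against 109 and 86.0 CPM) and Hspb8. Of 10 circadian and glucocorticoid genes 7 were lower, and the kinase Sgk1 was the 1 higher (170 and 269 CPM against 42.1 and 44.5 CPM). With TMM factors these counts were 29 of 29 higher for the nuclear respiratory chain, 7 of 13 higher for mitochondrially encoded genes, and 10 of 16 lower for immediate early genes. They were 4 lower and 3 higher for heat shock genes and 5 lower for circadian genes, and the motile cilium kept 39 of 42 lower.

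**Figure D3:**
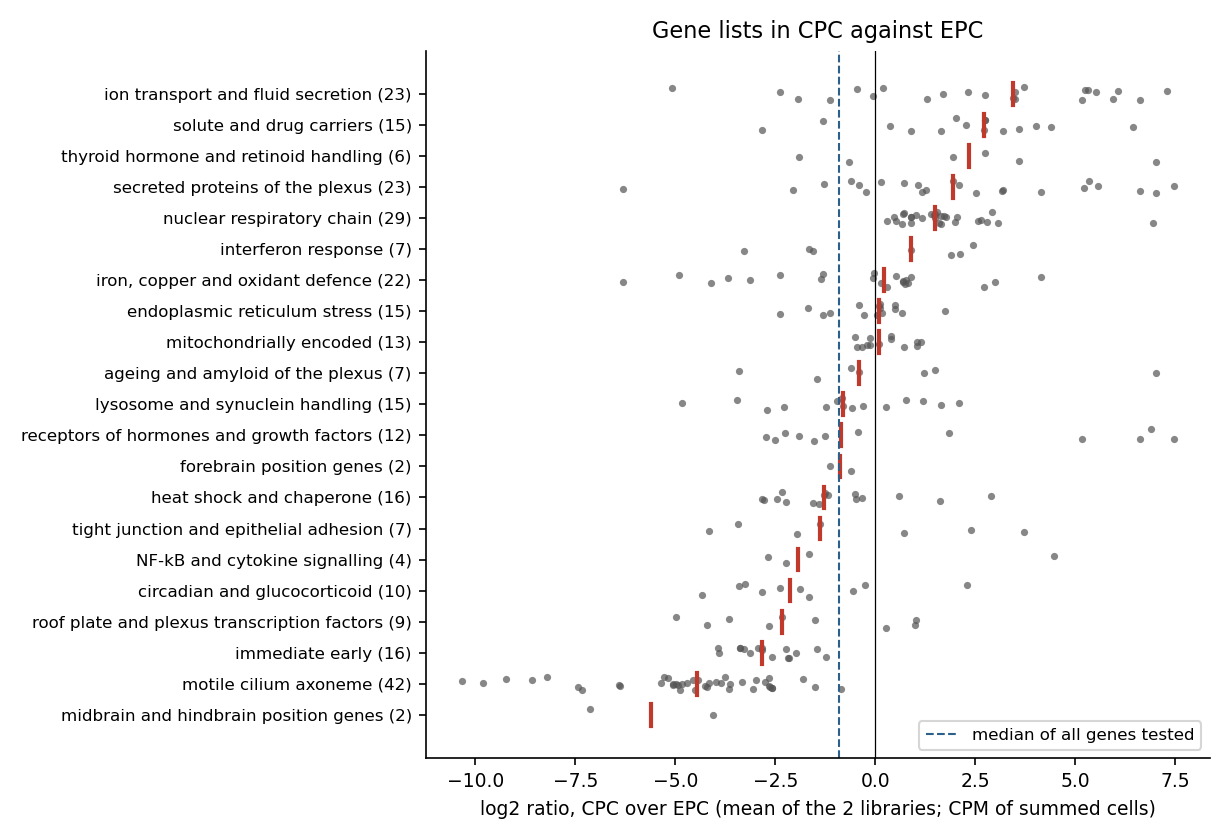
Log2 ratio of CPC over EPC (horizontal axis, mean of the 2 libraries, from CPM of summed cells) for each compared gene (points) of the 21 function lists, with the number of genes in brackets; red bars are list medians and the dashed line is the median of all genes compared (-0.91). Ion transport and carriers lie to the right and the motile cilium to the left.

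Between genotypes, the plexus programme lay close together over all CPC, and less so in cluster 13. CPC were 6.73% (5.98 to 7.56) of transgenic and 7.40% (6.82 to 8.01) of wildtype midbrain cells, a difference of -0.67 percentage points (-1.62 to 0.33). Ttr differed by 0.05 on the log2 scale, and 0 of 24 compared plexus markers passed 1.5 times in either direction. By cluster, Ttr differed by -0.03 in cluster 8, -0.04 in cluster 12 and -0.51 (-0.52 to -0.50) in cluster 13. The summed plexus markers, Ttr included, differed by -0.46 in cluster 13. Of the 2287 genes at 50 CPM or more in at least 1 library, 31 (1.36%) were higher in transgenic CPC by 1.5 times or more and 37 (1.62%) were lower by as much. The 0 of 24 plexus markers lies near these shares and does not set the markers apart from other genes. TMM factors gave 59 and 20, clusters weighted alike gave 41 and 18, and thinning each cell to 3000 UMIs gave 62 and 100, so the balance of the directions depends on these choices.

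Prnp encodes the prion protein (chromosome 2, 131909928 to 131938429, plus strand) and had the largest ratio of the named genes after Apod. It had 1191 UMIs in transgenic CPC (475 CPM) and 532 in wildtype CPC (88.9 CPM), a log2 ratio of 2.42 (2.27 to 2.57). Prnp was found in 227 of 269 transgenic cells (84.4%) and 270 of 565 wildtype cells (47.8%), and after thinning to 3000 UMIs in 66.5% and 19.5%. Microglia (MG), the label with the lowest transgenic level, had it in 13.5% and 8.68% of thinned cells. The difference was not even across the clusters. In clusters 8 and 12 the ratio was 1.61 and in cluster 13 it was 4.23 (3.92 to 4.56), from 820 CPM in transgenic and 43.5 CPM in wildtype. In the transgenic library cluster 13 was above cluster 8 (820 against 357 CPM), and in the wildtype library it was below it (43.5 against 122 CPM). By ratio, CPC ranked 5 of the 15 labels, below MNC, mNeur, EPC (3.20) and imNeur and above SMC (1.94), with astrocytes at 0.23 and MG at -0.04. The ratio stayed between 1.61 and 4.23 under every alternative run for it.

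Other genes higher in transgenic CPC had smaller ratios. The prohormone convertase Pcsk2 had 73.0 against 30.6 CPM (log2 ratio 1.25, 0.95 to 1.56), from 183 UMIs in each library. The extracellular superoxide dismutase Sod3 had 81.7 against 37.6 CPM (1.12, 0.84 to 1.40), and Tmem27 had 80.1 against 40.6 CPM (0.98, 0.70 to 1.26). The complex I subunit Ndufa3, found in 94.4% and 94.7% of cells, had 799 against 523 CPM (0.61, 0.53 to 0.69). In all non-CPC cells these 4 differed by -0.24, 0.30, -0.90 and 0.43. In cluster 13 alone Pcsk2, Sod3 and Tmem27 had ratios of 0.28, 0.08 and 0.09, each with an interval that spans 0, and Ndufa3 kept 0.85 (0.72 to 0.97). The deubiquitinase gene Usp50 (0.68), the mitochondrial mutase Mut (0.81), Magt1 (0.89), Itgb8 (0.72), Tmem98 (0.75) and Nme7 (0.74) complete the named set. Pcsk2, Sod3, Tmem27 and Magt1 passed the 50 CPM minimum through the transgenic library alone, where they are high.

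Single cells made some large ratios. Apod, a lipocalin, had a ratio of 2.80, but 135 of its 155 transgenic UMIs were in 1 cell of cluster 12, and without the top cell of each library the ratio was -0.09. Apod also passed the 50 CPM minimum through the transgenic library alone. Erythroid markers had 2335 against 114 CPM, and 1 transgenic cell of cluster 8 held 5402 of the 5856 UMIs. Without the cell with the most erythroid UMIs in each library, 28 genes were higher and 37 lower.

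Among genes lower in transgenic CPC, Malat1 had 989 against 2865 CPM (-1.53, -1.60 to -1.47). The top 10 wildtype cells held 9786 of 17138 UMIs and the top transgenic cell 1376 of 2481. Without the top cell of each library the ratio was -2.57. It was -0.53 within CPC under 1% Malat1, a class drawn on Malat1 itself, so that value follows in part from the choice. Tmsb4x, an actin-binding peptide gene at 128 against 257 CPM, had a ratio of -0.64 in those cells, and Pnisr (-0.93) had -0.46, while Ap1s2 (-1.08) and Id1 (-0.87) had -1.09 and -0.77. The adaptor subunit Ap1s2 had 112 against 238 CPM with UMIs in 121 of 269 transgenic and 409 of 565 wildtype cells. Id1, an inhibitor of differentiation factors and a target of BMP signalling, had 90.9 against 166 CPM and was lower in all 3 clusters, with ratios of -0.84, -0.83 and -0.76. Sgk1, induced by glucocorticoids, had 170 against 269 CPM (-0.66), with -0.19 (-0.44 to 0.05) in cluster 13. In non-CPC cells Ap1s2, Id1 and Sgk1 differed by -0.04, -0.32 and 0.20. Klhdc8b (-0.86), Smc6 (-0.81), Pdcd6 (-0.71), Syne1 (-0.90) and Thumpd3 (-0.64) were the others named. Pnisr, Klhdc8b and Syne1 passed the 50 CPM minimum through the wildtype library alone.

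Some immediate early genes were lower in transgenic CPC, beside lower marker sums of some other cell types. Jun had 64.2 CPM in transgenic and 103 CPM in wildtype CPC, Junb 35.9 and 60.5 CPM, and Klf2 40.3 and 94.6 CPM. Junb and Klf2 passed the 50 CPM minimum through the wildtype library alone, so no count over the list is given. The 12 endothelial markers summed to 248 CPM in transgenic and 432 CPM in wildtype CPC, with 0 markers at 0 UMIs. Mural markers summed to 80.1 and 141 CPM, and those of microglia to 153 and 250 CPM. Ependymal, border macrophage, oligodendrocyte, oligodendrocyte progenitor and neuron sums were lower too. Astrocyte markers were not lower, at 597 and 579 CPM, nor were fibroblast markers, at 72.2 and 62.0 CPM. The same held for the tanycyte, subcommissural organ, neuroblast, pituitary, olfactory ensheathing, lymphoid and erythroid sums. The endothelial claudin Cldn5 had 37.9 and 97.3 CPM. Klf2 stood at 3200 and 4636 CPM in endothelial cells (EC), and 61 of its 566 wildtype CPC UMIs were in 1 cell. In CPC with under 4 UMIs of other types' markers, Klf2 had a ratio of -0.59. The part of those markers in these differences was not tested.

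The remaining lists held few genes past 1.5 times, as did all 2287 genes compared (1.36% higher and 1.62% lower). Lists with 0 genes past it lie near these shares and are not set apart from other genes. A count of 1 rests on 1 gene. Ion transport had 1 of 23 (the calcium channel Trpv4, 0.74 higher), carriers 1 of 16 (Abca1, 0.65), oxidant defence 1 of 20 (Sod3) and lysosome genes 1 of 13 (Prnp). Trpv4, Abca1 and Sod3 passed the 50 CPM minimum through the transgenic library alone. The nuclear respiratory chain had 0 of 29, secreted proteins 0 of 22, endoplasmic reticulum stress 0 of 12, heat shock 0 of 10, interferon response 0 of 6 and motile cilium 0 of 6. Receptors had 0 of 8. Both compared circadian and glucocorticoid genes were lower, the clock output gene Dbp (56.2 against 90.6 CPM) and Sgk1. The ageing list had 1 of 6 lower, gelsolin (Gsn, 90.1 against 138 CPM). Mitochondrially encoded genes had 3 of 13 higher, mt-Nd3 (0.66), mt-Nd6 (0.88) and mt-Atp8 (0.65), and a list median of 0.31 that was -0.37 in cluster 13 alone. Endoplasmic reticulum stress genes likewise had a median of 0.35 over all CPC and -0.34 in cluster 13.

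**Figure D4:**
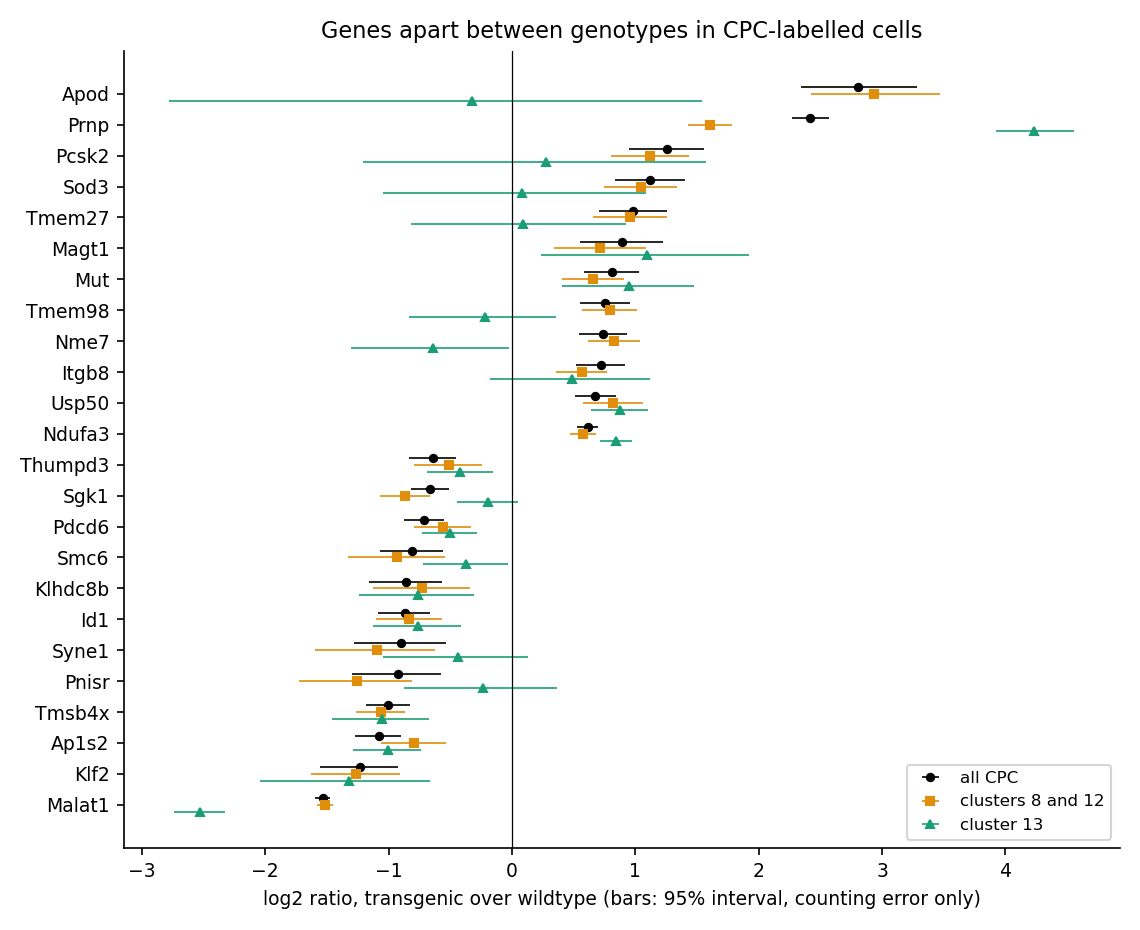
Log2 ratio of transgenic over wildtype (horizontal axis; bars are 95% intervals for counting error only) for the 24 genes named by rule (vertical axis) in all CPC, in clusters 8 and 12 and in cluster 13. Prnp stands at 4.23 in cluster 13 and 1.61 in clusters 8 and 12, and the cluster 13 points of Apod, Tmem98 and Nme7 lie on the other side of 0.

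The top genes of CPC were then traced through all other midbrain labels. Ttr was found in nearly every cell: the median non-CPC cell had 14 Ttr UMIs in the transgenic library and 18 in the wildtype library. Label by label the medians ran from 11 to 17.5 UMIs and from 16 to 23 UMIs. Summed over non-CPC cells, Ttr was at 1878 and 3359 CPM, a log2 ratio of -0.84 (-0.85 to -0.83). Over all CPC it differed by 0.05, and in cluster 13 alone by -0.51. The transgenic level was the lower in 14 of 14 other labels, and so was the median Ttr share per cell. CPC held 7.56% of all UMIs of the transgenic library and 10.6% of the wildtype library, and 92.6% and 90.7% of all midbrain Ttr UMIs.

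A few non-CPC cells held much more: 2 transgenic and 20 wildtype cells had at least 5% of their UMIs from Ttr. Leaving out the 1% of non-CPC cells with the most Ttr UMIs gave 1734 and 2647 CPM and a ratio of -0.61. In wildtype EPC 1 cell held 2316 of 4815 Ttr UMIs.

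Frontal cortex offered a contrast. There Ttr was at 8.25 to 49.4 CPM in the transgenic and 5.42 to 63.9 CPM in the wildtype library over the labels with any Ttr UMIs other than EPC, far below the 1022 to 2528 and 1575 to 7322 CPM of the non-CPC midbrain labels.

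**Figure D5:**
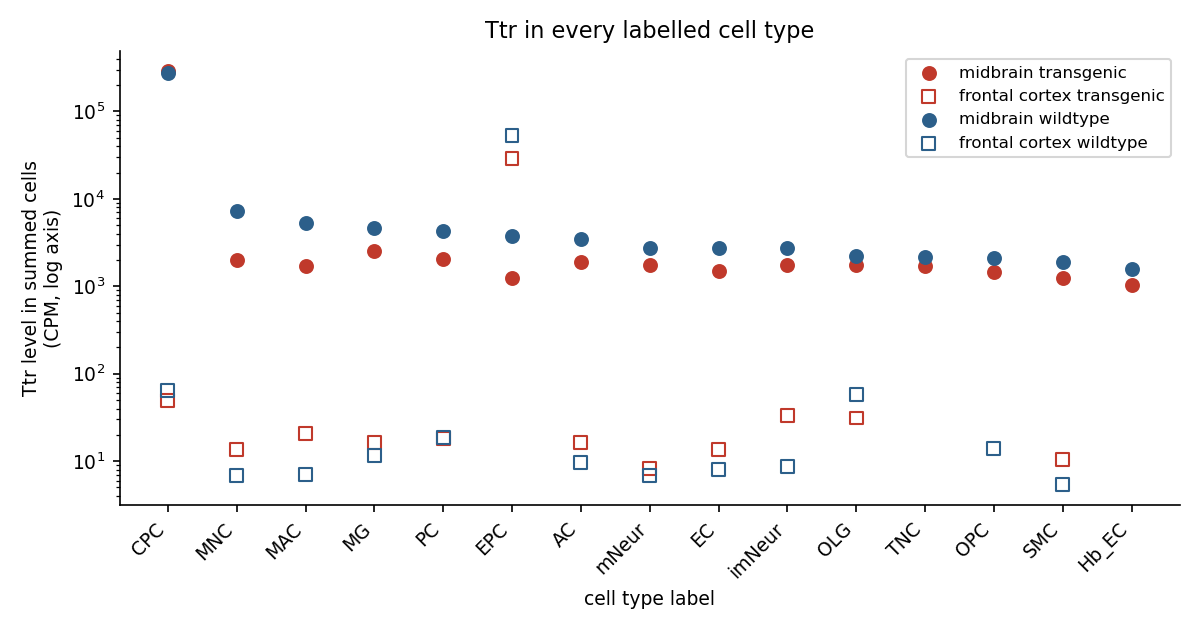
Ttr level (vertical axis, CPM of summed cells, log scale) by cell type label (horizontal axis) in the midbrain libraries (filled circles) and the frontal cortex libraries (open squares; labels at 0 UMIs are not drawn). Midbrain labels other than CPC lie between 1022 and 7322 CPM, and in frontal cortex only EPC reach above 100 CPM.

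The other leading genes followed Ttr in part. In cells outside CPC and EPC, the 30 genes stood at a median of 0.737% of their CPC level in the transgenic library (0.258% to 2.79%) and 1.28% in the wildtype library (0.654% to 2.40%). For 29 of the 30, Krt18 being the exception, the level in those cells was lower in transgenic, with a median log2 ratio of -0.64. The interval lay below 0 for 22 of them and spanned 0 for 8 of the 30, and 51.8% of the 14882 genes with at least 1 CPM in those cells were lower in transgenic. Set against Ttr, 16 of the 29 genes other than Ttr had a ratio in those cells within 1.5 times of the ratio in CPC in both libraries. Kl, for example, stood to Ttr at 1.07 times its CPC ratio in the transgenic library and 0.96 times in the wildtype library, and Enpp2 at 1.24 and 1.23 times. The 30 genes were picked for large ratios of CPC over all other cells. Their low levels outside CPC and their nearness to Ttr therefore follow in part from that choice.

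Genes that exceeded this common ratio in both libraries numbered 4, namely Tmem72, Hemk1, Clic6 and Pcp4. Pcp4, a calmodulin-binding protein, reached 277 and 218 CPM in the label mNeur, which is 57.2% and 32.8% of its CPC level. Below the common ratio in both were 2900040C04Rik (0.63 and 0.54 times) and Cox8b (0.57 and 0.63 times). Some leading genes had a second label of their own. Among them were Folr1 in EPC (153 and 170 CPM), Wfdc2, an epithelial secreted protein, in OLG (121 and 127 CPM), Krt18 in mNeur (92.3 and 19.0 CPM) and EPC (65.6 and 71.9 CPM) and Kl in OPC (40.4 and 86.1 CPM). Others were Enpp2 in imNeur (464 and 545 CPM), and Ociad2 (105 and 23.0 CPM) and Vat1l (39.9 and 30.6 CPM) in TNC. In EPC, Prlr had 0 and 4.69 CPM and Car12 1.68 and 2.34 CPM. Prlr was higher in SMC (10.3 and 31.5 CPM) and mNeur (23.1 and 8.89 CPM).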

How the data were processed

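Per the submitters' processing notes, the mm10 build, Seurat 3.1.5 and Cell Ranger 3.0.0 were used. The authors deposited whole-number UMI counts per gene and cell (19956 features in midbrain), and the cell tables give type and cluster labels and a mitochondrial percent per cell. Cell filters and doublet removal are not given in the sources used here, and no doublet caller was run. The deposited labels, 15 types in 29 clusters, were used as they stand. The midbrain libraries hold 3995 transgenic and 7635 wildtype cells with 33168117 and 56588233 UMIs. They share 4 cell barcodes, 0 of them among CPC.

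Counts were summed over the cells of a label in each library and scaled to CPM. Log2 ratios have Clopper-Pearson intervals conditional on the sum of both counts, and a level of 0 was set to a floor of 3 UMIs per group. With 1 library per genotype there is no test. Genotypes were compared at 1.5 times or more among genes with at least 50 CPM in either library, and cell types or clusters at 2 times or more in both libraries, with 50 CPM in the higher one. Shares of cells have exact binomial intervals. The ratios were checked on simulated counts.

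Named genes were the 30 leading genes (at least 100 CPM), 15 each way against EPC and between clusters, and 12 each way between genotypes, by the interval bound nearest 0 with at least 30 UMIs. The leading genes were those with the largest ratios of CPC over all other cells in both libraries. Mitochondrial, ribosomal, haemoglobin, predicted, sex-linked and other types' marker genes were left out of the genotype names. Members, the 18 marker and 21 function lists and the tests were chosen with earlier results of these data known. The comparison of cluster 13, the Malat1 classes and the alternatives within clusters were chosen after the data were seen. Alternatives were edgeR (TMM) and DESeq2 factors, other totals, filters, single cells left out and thinning to 3000 UMIs. Coordinates are from GENCODE on GRCm38. Python 3.11.15, R 4.3.3, edgeR 4.0.16 and DESeq2 1.42.0 were used.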

Additional observations from a re-analysis of the deposited data

Results flagged for a closer look

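Nme7, a centrosomal protein related to nucleoside diphosphate kinases, lay apart in opposite directions within CPC. Its log2 ratio of transgenic over wildtype was 0.83 in clusters 8 and 12 and -0.64 (-1.30 to -0.03) in cluster 13. The difference between the clusters was not tested, and each value compares 2 libraries.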

How the results depend on the processing

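The counts of genes apart between genotypes (31 higher, 37 lower) depended on the scaling and the minimum level: 59 and 20 with TMM factors, 55 and 20 with DESeq2 factors, 57 and 74 with the total without Ttr, mitochondrial and ribosomal genes (3530 genes then pass the minimum, against 2287), 62 and 100 after thinning, 68 and 182 at a minimum of 20 CPM, and 3254 and 2226 with no minimum. In cluster 13 alone they were 140 and 116. Cells with under 4 UMIs of other types' markers gave 85 lower, and clusters weighted alike gave 18 lower. Against EPC, TMM factors gave 1079 higher and 977 lower, the reduced total 900 higher, a minimum of 20 CPM 3211 lower and cluster 13 alone 763 higher. Between clusters, TMM factors gave 0 genes higher in cluster 13, and the reduced total 12 higher and 726 lower. The reduced total lets more genes pass the minimum in these comparisons too. With cells under 10% mitochondrial UMIs and at least 500 genes, the transgenic CPC share was 5.79%, and the difference of shares was -1.07 points (-2.04 to -0.049). Ttr outside CPC was 2527 and 4075 CPM as the mean of per-cell CPM, 1746 and 3302 CPM under that cell filter, and 1734 and 2647 CPM without the top 1% of cells. The transgenic level was the lower in each. Ratios that turned negative in cluster 13 alone were Apod (-0.32), Tmem98 (-0.22) and Nme7 (-0.64), and Apod without its top cells (-0.085). The cause was not tested, apart from the cells left out by construction. No paired analysis was possible because each genotype is 1 library and the labels number no replicates. The 532 wildtype and 1191 transgenic Prnp UMIs set its precision, and the 2508147 UMIs of transgenic CPC limit every genotype ratio.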

Other observations

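In frontal cortex the label CPC marked other cells. The 27 transgenic and 73 wildtype cells so labelled had 49.4 and 63.9 CPM of Ttr, and their 6 olfactory ensheathing markers summed to 32640 and 31844 CPM. Plexus marker UMIs in that region were in the label EPC instead: 3 of 16 transgenic and 6 of 14 wildtype EPC had at least 5% of their UMIs from Ttr. In those cells the plexus markers other than Ttr summed to 13654 and 13671 CPM and the ependymal markers to 1686 and 1215 CPM. In the other EPC of that region the plexus markers summed to 3441 and 4922 CPM and the ependymal markers to 16752 and 9669 CPM. The Ttr-rich cells also had little Malat1, with medians of 0.031% and 0.037% of UMIs against 2.86% and 3.57% in the other EPC.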
